A study of Mus musculus with 6 samples.

Results

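The genes described here are 10 through which fibroblasts signal to other cells, hold leukocytes or sense microbial products: the cytokine genes Il6, Lif, Csf1 and Il33, the IL-33 receptor gene Il1rl1, the prostaglandin synthase gene Ptgs2, the adhesion receptor genes Vcam1 and Icam1, and the lipopolysaccharide receptor genes Cd14 and Tlr4. They were chosen by symbol, and every array row that carries 1 of the 10 symbols was taken, which gave 15 of the array's 25697 probes and 10 of its 17913 genes. The cells were embryonic fibroblasts of the mouse (MEFs), a connective tissue cell, of the C57BL/6 genetic background. One set of 3 samples carried truncated NELF-B, named for an ATG start codon in the titles, and the other set of 3 carried full-length NELF-B. Both sets were kept in DMEM with 10% FBS and taken at 50% confluence, with no cytokine, microbial or other stimulus named. How each form was brought into the cells, whether other NELF-B was present, and how many clones or cultures stand behind the samples is not stated in the labels, so the p-values reflect sample-to-sample spread that may be technical.

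NELF-B is a subunit of the negative elongation factor, which holds RNA polymerase II shortly after it has begun a transcript. Fibroblasts are sentinel cells of connective tissue. Il6 and Lif encode secreted ligands that share the signalling receptor gp130, Csf1 encodes the growth factor that keeps macrophages alive, and Il33 encodes a nuclear cytokine of the IL-1 family that acts on the receptor ST2 (Il1rl1) once it leaves the cell. Ptgs2 makes the precursor of prostaglandins, Vcam1 and Icam1 are immunoglobulin-type ligands of leukocyte integrins, and Cd14 hands lipopolysaccharide to Tlr4 and its partner Ly96. Many of these genes are known targets of NF-kB and are strongly induced by IL-1, tumour necrosis factor or lipopolysaccharide.

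The arrays had median intensities of 143 to 152, with 46.4% to 48.7% of probes above background, and precision is limited by having 3 of them per form. Of 11 fibroblast marker genes looked for, 10 were on the array and 8 of these were above background on all 6 arrays, among them Col1a1, Col1a2, Col3a1, Pdgfra and Vim, while the Thy1 and Lum probes were above background on none. The brighter Nelfb probe averaged 7.01 with the truncated form and 6.69 with the full-length form in normalized log2 intensity (adjusted p = 0.144, limma). The dimmer Nelfb probe averaged 5.59 with the truncated form and 5.63 with the full-length form. Its log2 fold change was -0.04 ± 0.18 (SE) in a fit of every probe. The position of either probe in the transcript is not given, so neither checks which form a sample carried.

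Promoter sequence was examined for 7 of the 10 members. It came from 9 windows of 250 bases in RefSeq's GRCm38.p6 annotation that end just before an annotated transcript start. No window was examined for Vcam1, Cd14 or Tlr4. The sequences of Il1rl1 and Il33 follow because each gene has 2 windows. Those of Il6 and Csf1 follow as the only 2 of the 7 genes with a match to the NF-kB consensus. Upstream and downstream give only the order of a gene's 2 windows. The annotated Il1rl1 locus begins at 40404864, before both of its windows, and its outermost start has no window here. Capitals mark every match to 1 of 4 motifs, searched on both strands: the NF-kB consensus, the AP-1 site TGANTCA, the CRE core TGACG and the TATA box TATAAA. Each is written from 5′ to 3′ along the gene's own strand.
Il1rl1, upstream start, chr1:40429320-40429569, plus strand: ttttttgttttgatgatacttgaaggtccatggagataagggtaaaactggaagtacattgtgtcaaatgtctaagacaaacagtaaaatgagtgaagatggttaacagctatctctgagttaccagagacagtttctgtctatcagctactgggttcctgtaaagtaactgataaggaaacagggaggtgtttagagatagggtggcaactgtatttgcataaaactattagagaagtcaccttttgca
Il1rl1, downstream start, chr1:40439379-40439628, plus strand: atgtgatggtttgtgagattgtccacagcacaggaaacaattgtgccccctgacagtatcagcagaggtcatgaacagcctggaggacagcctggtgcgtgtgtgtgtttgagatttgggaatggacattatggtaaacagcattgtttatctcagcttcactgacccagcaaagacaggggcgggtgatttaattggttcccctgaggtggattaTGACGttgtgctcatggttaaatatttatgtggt
Il33, upstream start, chr19:29924863-29925112, plus strand: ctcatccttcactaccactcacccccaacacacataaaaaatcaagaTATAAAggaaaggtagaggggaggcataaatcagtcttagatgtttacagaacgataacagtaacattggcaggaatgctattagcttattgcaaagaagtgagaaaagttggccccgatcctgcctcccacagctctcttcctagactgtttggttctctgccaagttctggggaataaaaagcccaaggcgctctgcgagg
Il33, downstream start, chr19:29945540-29945789, plus strand: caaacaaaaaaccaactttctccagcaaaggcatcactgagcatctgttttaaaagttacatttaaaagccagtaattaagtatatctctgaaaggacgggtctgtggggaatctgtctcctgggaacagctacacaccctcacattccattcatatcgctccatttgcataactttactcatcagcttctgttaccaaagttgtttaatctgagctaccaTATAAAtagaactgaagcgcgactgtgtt
Il6, chr5:30012864-30013113, plus strand: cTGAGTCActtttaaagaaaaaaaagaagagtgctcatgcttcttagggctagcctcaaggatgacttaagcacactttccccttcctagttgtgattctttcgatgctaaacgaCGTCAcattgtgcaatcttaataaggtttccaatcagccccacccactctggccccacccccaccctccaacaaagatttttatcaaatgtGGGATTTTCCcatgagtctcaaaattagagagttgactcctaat
Csf1, chr3:107760470-107760719, minus strand: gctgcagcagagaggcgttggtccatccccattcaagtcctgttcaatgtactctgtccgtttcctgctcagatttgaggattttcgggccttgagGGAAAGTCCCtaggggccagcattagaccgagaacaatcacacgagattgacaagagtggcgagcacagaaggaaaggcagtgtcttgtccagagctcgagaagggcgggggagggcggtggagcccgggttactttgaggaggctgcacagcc
The Il6 window held an NF-kB match, GGGATTTTCC, from 44 to 35 bases before the start, an AP-1 site that reads as a match on both strands, and a CRE core on the opposite strand. The Csf1 window held GGGACTTTCC on the strand opposite to the gene, from 154 to 145 bases before the start. Of 32851 windows of that length in the annotation, 3.9% held an NF-kB match, 6.75% an AP-1 site, 17.8% a CRE core and 12.4% a TATA box. The downstream Il33 start had a TATA box from 29 to 24 bases before it, where the upstream window had TATAAA only from 203 to 198 bases before the start. The downstream Il1rl1 window had a CRE core from 34 to 30 bases before the start, and the upstream one had none of the 4 motifs. A match is a description of letters and not of a bound site.

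The 10 genes fell into a bright and a dim set. Single probes for Il1rl1, Vcam1, Cd14, Csf1 and Il33 had a detection p of 0 on all 6 arrays, which means that they exceeded every negative control. The remaining genes stood at or close to background. For Tlr4, Icam1 and Lif, 1 probe each was above background (detection p under 0.05) on 3 or more arrays, and Il6 and Ptgs2 had no such probe. With the filter used for the whole array, 8 of the 10 genes and 8 of the 15 probes could therefore be tested, and Il6 and Ptgs2 were left out of the gene test.

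**Figure D1:**
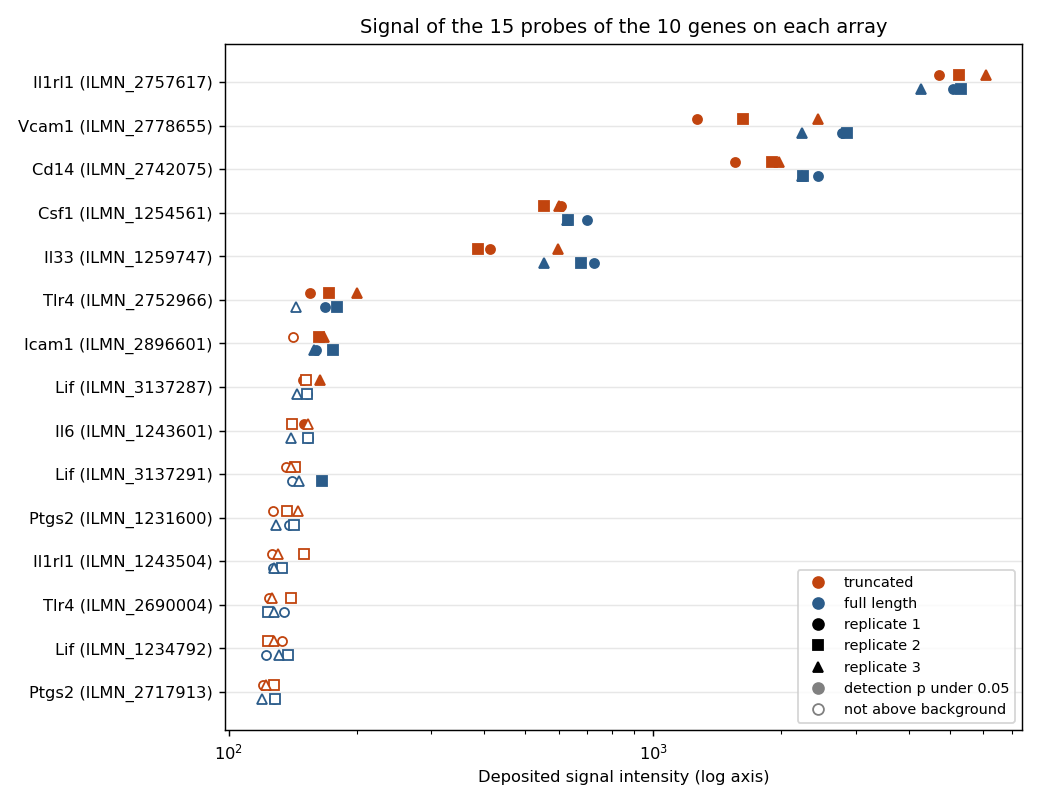
Deposited signal intensity on a log axis for the 15 probes, 1 row per probe, with truncated arrays above full-length arrays in each row and the marker shape giving the replicate. Filled markers have a detection p under 0.05. For Il1rl1, Vcam1, Cd14, Csf1 and Il33, 1 probe each is filled on all 6 arrays. The dim Il1rl1 probe and both Ptgs2 probes are open on all 6. Rows differ in probe sequence, so the position of 1 row against another is no measure of relative RNA level.

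None of the 8 tested genes passed at an adjusted p under 0.05 (limma, Benjamini-Hochberg over 8990 genes), where 1.6% of all tested genes did. Without adjustment 4 of the 8 had p under 0.05 (Vcam1, Il33, Cd14 and Lif), against 20.1% of all tested genes. For 4 of the 8 every normalized value of one form lay outside the range of the other, against 25.7% of all tested genes. Il33 and Cd14 lay below with truncated NELF-B (12.8% of all tested genes) and Il1rl1 and Lif above (12.9%). In the deposited intensities Cd14 alone of these 4 was without overlap, and Csf1 was without overlap there too. In a fit of every probe on the array, 0 of the 15 member probes and 0.0545% of all probes passed, and 4 of the 15 against 12.6% had an unadjusted p under 0.05. Of the 8 log2 fold changes, truncated over full length, 5 were below 0, with a median of -0.14, where the median of all tested genes was 0.01 and 48.3% of them were below 0. These counts describe the 8 genes that passed the filter and not all 10. All 8 had a 95% confidence interval within 1 log2 unit (2-fold) either way, as did 97.1% of all tested genes. Normalized values carry an added offset of 16 intensity units, so folds of dim probes are understated. In a whole-cell RNA sample, fewer cells of a kind and less RNA per cell cannot be told apart.

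**Figure D2:**
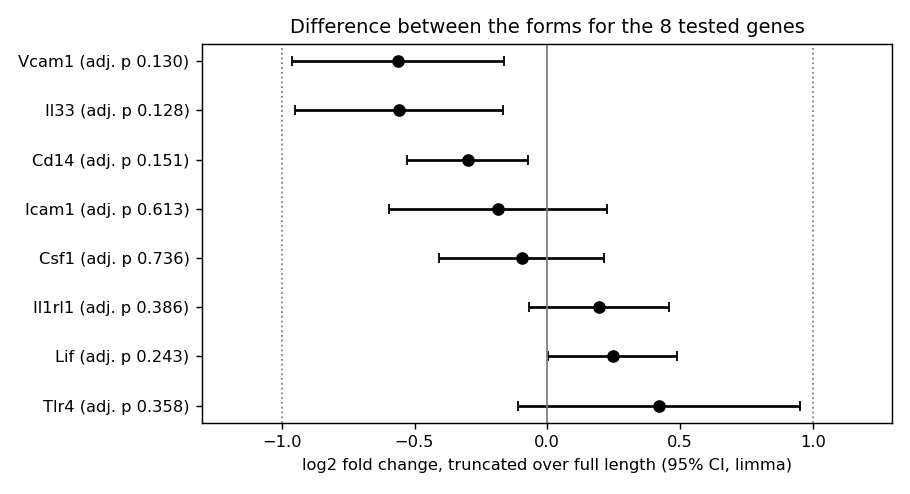
Log2 fold change, truncated over full length, of the 8 tested genes with its 95% confidence interval from limma (3 arrays per form). Dotted lines mark 2-fold either way. Intervals of Vcam1, Il33 and Cd14 lie below 0 and that of Lif above 0, and every adjusted p is 0.128 or more.

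Of the 4 cytokine genes, Il33 had the log2 fold change farthest from 0. Its normalized log2 intensities were 8.45, 8.12 and 8.77 on truncated replicates 1, 2 and 3, and 9.17, 9.03 and 8.82 on full-length replicates 1, 2 and 3. Every truncated array lay below every full-length array, but truncated replicate 3 came close to full-length replicate 3. The means were 8.45 ± 0.33 with the truncated form and 9.004 ± 0.17 with the full-length form (SD, n = 3 each; exact permutation p = 0.1, two-sided, which is the lowest value possible with 3 arrays per form). The fit gave a log2 fold change of -0.56 ± 0.17 (SE), a 1.47-fold lower level with truncated NELF-B, with a 95% confidence interval of -0.95 to -0.17 and an adjusted p of 0.128 (limma). In the intensities as deposited the forms overlapped, at 412, 387 and 597 on the truncated arrays and 723, 678 and 554 on the full-length arrays. The deposited probe is designed to NM_133775.1, and the files do not give its position, so which of the 2 starts shown for Il33 it follows is not known.

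Csf1 was bright in both forms. Its log2 intensities were 9.18, 8.80 and 8.78 on the truncated arrays and 9.10, 8.90 and 9.05 on the full-length arrays. Truncated replicate 1 was the highest and truncated replicate 3 the lowest of all 6, so the full-length arrays lay inside the range of the truncated ones. The log2 fold change was -0.10 ± 0.14 (95% confidence interval -0.41 to 0.21, adjusted p = 0.736, limma). It moved with single arrays, from -0.23 without truncated replicate 1 to -0.03 without truncated replicate 3, was -0.04 without truncated replicate 2, -0.05 without full-length replicate 1 and -0.15 without full-length replicate 2, and was -0.16 with median scaling. As deposited, all 3 truncated intensities (605, 552 and 600) were below the 3 full-length ones (697, 630 and 627), an order that normalization did not keep.

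Both gp130 ligands were near the detection limit. Lif had 3 probes. The brightest read 150, 152 and 164 intensity units on the truncated arrays and 153, 153 and 145 on the full-length arrays, and was above background on 2 truncated arrays and 1 full-length array. In normalized values those arrays did not overlap, with 5.26, 5.11 and 5.34 on the truncated and 5.01, 4.98 and 4.98 on the full-length ones. On the log2 scale the difference was 0.25 ± 0.11 (adjusted p = 0.243, limma), and with no background correction it was 0.065. A further Lif probe for the same transcript, above background only on full-length replicate 2, had the opposite sign, at -0.33 ± 0.17 on the log2 scale (adjusted p = 0.508 over all probes, limma), and the last was above background on no array. The probes therefore gave no common direction for Lif.

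Il6 was represented by 1 probe. It read 151, 141 and 154 intensity units on the truncated arrays and 154, 154 and 141 on the full-length arrays. The detection p was under 0.05 on truncated replicate 1 (0.0326) and full-length replicate 1 (0.0414) and above it on the other 4 arrays. The intensities of the forms overlapped throughout, and a difference between the forms in Il6 was not detectable at this signal. In the fit of all 25697 probes without a detection filter its log2 fold change was 0.04 ± 0.15 (95% confidence interval -0.31 to 0.39, limma), which bounds the measured signal and not the RNA.

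Il1rl1, the IL-33 receptor gene, had 2 probes designed to different RefSeq records. As background, the gene gives a membrane-bound receptor chain, ST2L, and a shorter secreted form without the membrane anchor, which binds IL-33 and keeps it from the receptor. In the mouse, fibroblasts are known mainly as a source of the secreted form. Which form each record encodes and where the probes lie was not analysed here, and a probe may lie in sequence that the forms share. The probe designed to NM_010743.1 read 4709, 5268 and 6090 intensity units on the truncated arrays and 5076, 5324 and 4285 on the full-length arrays. The probe designed to NM_001025602.1 was above background on none of the 6 arrays, reading 126, 151 and 131 on the truncated arrays and 127, 133 and 127 on the full-length arrays. All 6 arrays thus gave signal on the one probe and none above background on the other. Probes can also differ in how well they bind, so these readings do not give the share of either form.

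Il1rl1 did not pass the test between the forms. The normalized log2 intensities of the bright probe were 12.37, 12.34 and 12.45 with truncated NELF-B and 12.24, 12.31 and 12.01 with full-length NELF-B. Full-length replicate 3 stood lowest, and truncated replicate 2 lay just above full-length replicate 2. In the deposited intensities of this probe the forms overlapped. Il1rl1 had a log2 fold change of 0.20 ± 0.12, with a 95% confidence interval of -0.07 to 0.46 and an adjusted p of 0.386 (limma). Without full-length replicate 3 it was 0.11.

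Ptgs2, the inducible prostaglandin synthase, was not above background with either of its 2 probes on any array. The brighter one read 127, 137 and 146 intensity units on the truncated arrays and 139, 142 and 129 on the full-length arrays, with detection p from 0.189 to 0.665. The other one read between 121 and 128 on the truncated arrays and between 119 and 128 on the full-length ones. Unlike Ptgs2, its constitutive counterpart Ptgs1 was above background on all 6 arrays, and stood at 0.19 ± 0.19 on the log2 fold scale (adjusted p = 0.629, limma). With both groups below background, the Ptgs2 signals give no measure of a difference between the forms.

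**Figure D3:**
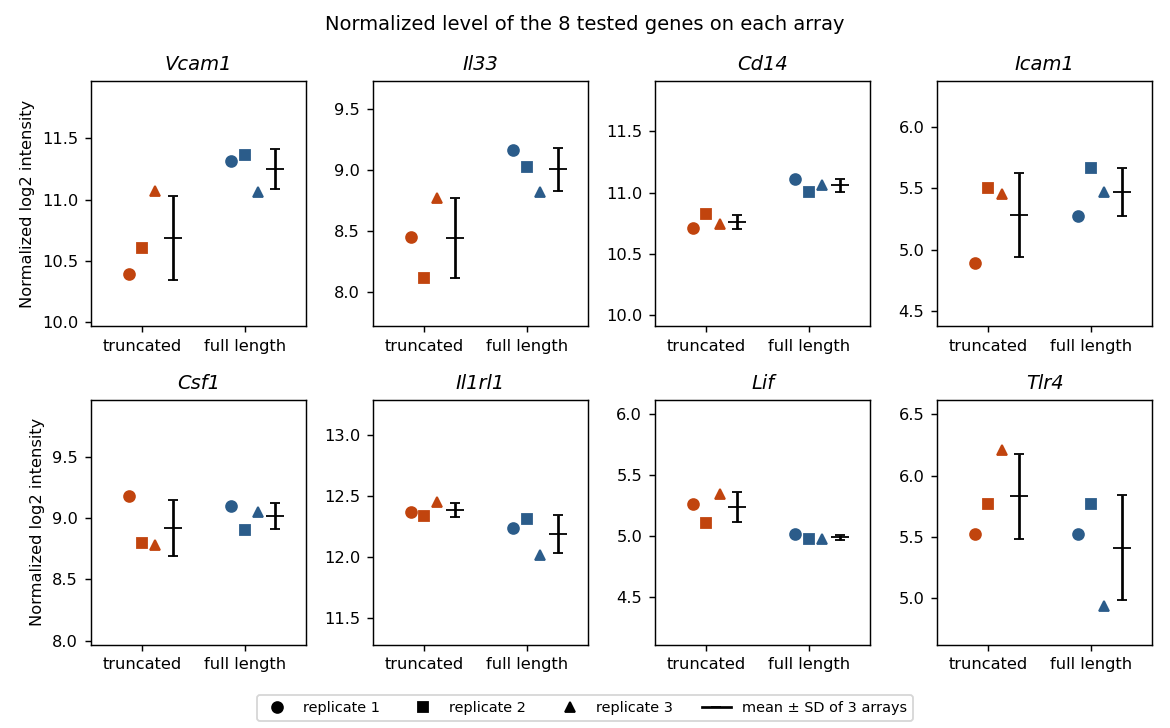
Normalized log2 intensity of the 8 tested genes, each panel spanning 2 log2 units, with the truncated arrays left of the full-length arrays, marker shape for the replicate, and bars for the mean ± SD of 3 arrays. For Vcam1 and Il33 truncated replicates 1 and 2 lie below all other arrays and truncated replicate 3 lies beside full-length replicate 3. For Cd14 the 3 truncated arrays lie together below the 3 full-length arrays.

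Vcam1, the ligand of the integrin VLA-4, had a log2 fold change close to that of Il33. Its normalized log2 intensities were 10.39, 10.60 and 11.07 on truncated replicates 1, 2 and 3, and 11.31, 11.37 and 11.07 on full-length replicates 1, 2 and 3. Truncated replicates 1 and 2 lay below all full-length arrays, and truncated replicate 3 lay level with full-length replicate 3, so that the forms just overlapped (exact permutation p = 0.2, two-sided). The means were 10.69 ± 0.34 with the truncated form and 11.25 ± 0.16 with the full-length form (SD, n = 3 each). The log2 fold change was -0.56 ± 0.18, or 1.48-fold lower, with a 95% confidence interval of -0.96 to -0.16 and an adjusted p of 0.130 (limma). The deposited intensities were 1265, 1626 and 2439 on the truncated arrays and 2781, 2862 and 2245 on the full-length arrays. Without truncated replicate 3 the log2 fold change of Vcam1 was -0.75 and its adjusted p 0.0458 (limma). Vcam1 was the only member to pass when an array was left out. Without that array Il33 was at -0.72 with an adjusted p of 0.0542 (limma), and 275 of 8990 genes passed. Vcam1 was nearest to 0 without truncated replicate 1, at -0.41 (adjusted p = 0.361, limma). Il33 was nearest to 0 without truncated replicate 2, at -0.39 (adjusted p = 0.282, limma). Over 19 alternative settings of the fit both genes stayed below 0, though some of these settings could not change a log2 fold change. Vcam1 passed in 6 of the 19, with adjusted p from 0.0110 to 0.361, and Il33 in 5, with adjusted p from 0.0198 to 0.313 (limma). In the settings where either passed, 275 to 731 of 8990 genes passed, against 144 in the main fit.

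Icam1, the ligand of the leukocyte integrin LFA-1, was dim. It read 142, 163 and 168 intensity units on the truncated arrays and 160, 176 and 159 on the full-length arrays, and was above background on all arrays but truncated replicate 1. The forms overlapped, and the log2 fold change of -0.19 ± 0.18 (95% confidence interval -0.60 to 0.22, adjusted p = 0.613, limma) rested on that array, since without it the value was 0.01. It was -0.30 without truncated replicate 2, -0.28 without full-length replicate 1 and -0.09 without full-length replicate 2. The 2 adhesion receptor genes thus had unlike readings, with a bright signal for Vcam1 and a signal close to background for Icam1.

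Cd14, the coreceptor for lipopolysaccharide, had the smallest standard error of the 5 bright genes. Its normalized log2 intensities were 10.71, 10.83 and 10.75 with truncated NELF-B and 11.11, 11.01 and 11.06 with full-length NELF-B. The 3 truncated arrays lay together below the 3 full-length arrays in these values, and did so in the deposited intensities too, at 1560, 1904 and 1981 against 2441, 2258 and 2241. The log2 fold change was -0.30 ± 0.10, a 1.23-fold lower level with the truncated form, with a 95% confidence interval of -0.53 to -0.07, an exact two-sided permutation p of 0.1 and an adjusted p of 0.151 (limma). Cd14 passed in 2 of 19 alternative settings, where 706 and 731 of 8990 genes passed, against 144 in the main fit. Over the 19 its adjusted p ran from 0.0281 to 0.389 (limma) and its log2 fold change from -0.35 to -0.27. Some of the 19 could not change a log2 fold change.

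Tlr4, the signalling receptor, was dim and variable. Its brighter probe read 156, 172 and 201 intensity units on the truncated arrays and 169, 180 and 144 on the full-length arrays, and it was above background on all arrays but full-length replicate 3. That array was the lowest and truncated replicate 3 the highest, while the other 4 arrays overlapped. The log2 fold change was 0.42 ± 0.23 (95% confidence interval -0.11 to 0.95, adjusted p = 0.358, limma), and it was 0.18 without full-length replicate 3 and 0.23 without truncated replicate 3. The second Tlr4 probe was above background on no array, with a log2 fold change of 0.05 ± 0.12 in the fit of all probes.

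The genes around the 10 members were taken from 6 pathway lists. Of the 109 other genes in these lists 69 were tested. None of the 69 passed at an adjusted p under 0.05 (limma), against 1.6% of all tested genes, and 8 had an unadjusted p under 0.05, against 20.1% of all tested genes. The lists' medians lay between -0.11 and 0.05, beside 0.01 for all tested genes. These medians, and the counts given per list below, include the members.

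In the lipopolysaccharide and Toll-like receptor list, 13 genes were tested, 7 with values above 0 and 6 below. Lbp, the serum protein gene whose product loads lipopolysaccharide onto CD14, had the lowest value of any gene in the 6 lists. Its normalized log2 intensities were 8.34, 8.80 and 9.51 on truncated replicates 1, 2 and 3, and 9.74, 9.95 and 9.87 on full-length replicates 1, 2 and 3. All truncated arrays were below all full-length arrays, with truncated replicate 3 again nearest to them. The log2 fold change of Lbp was -0.97 ± 0.25 with an adjusted p of 0.0893 (limma). Ly96, the extracellular partner of Tlr4, stood at -0.19 ± 0.12 on the log2 scale (adjusted p = 0.422), and the RNA sensor gene Tlr7 at 0.28 ± 0.17 (adjusted p = 0.388).

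In the IL-1 and IL-33 family list, 18 genes were tested and 11 had values below 0, with a median of -0.09. Il18, which encodes a further cytokine of the family, stood at a log2 value of -0.51 ± 0.18 (adjusted p = 0.163, limma). Irak4, the kinase that couples these receptors to NF-kB, stood at -0.40 ± 0.13 (adjusted p = 0.143) and the inhibitory adaptor gene Tollip at 0.23 ± 0.11 (adjusted p = 0.273). The accessory chain gene Il1rap, which ST2 needs to signal, was above background on all 6 arrays at a log2 value of 0.16 ± 0.11 (adjusted p = 0.454). Il1a and Il1b were above background on no array.

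In the IL-6 family and JAK-STAT3 list, 18 genes were tested, and 13 had values below 0, with a median of -0.11. Il6st, which encodes gp130, stood at -0.33 ± 0.15 on that scale (adjusted p = 0.268, limma), and all 3 truncated arrays lay below all 3 full-length arrays. Lifr, which pairs with gp130 for Lif, stood at 0.37 ± 0.18 (adjusted p = 0.295). Il11ra1, the IL-11 receptor chain, stood at -0.28 ± 0.10 (adjusted p = 0.172). The IL-6 receptor gene Il6ra was above background on 1 truncated array and on no full-length array, so it was not tested.

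In the adhesion receptor list, 14 genes were tested, 7 with values above 0 and 7 below, with a median of 0.00. Nectin3 and Nectin2, which encode immunoglobulin-type receptors of cell junctions, had opposite signs, at 0.38 ± 0.10 (adjusted p = 0.102, limma) and -0.34 ± 0.13 (adjusted p = 0.196), each without overlap between the forms. Cd47, the gene of the surface signal that restrains phagocytes, stood at -0.32 ± 0.15 (adjusted p = 0.281). Of the Icam1 relatives, Icam2, Icam4 and Icam5 were above background on no array.

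Among 7 tested haematopoietic growth factor genes, 4 had values above 0, with a median of 0.05. Csf3, the granulocyte factor gene, stood at 0.35 ± 0.13 (adjusted p = 0.179, limma) and was above background on 2 truncated arrays and 1 full-length array. Il34, which encodes the other ligand of the Csf1 receptor, stood at -0.45 ± 0.21 (adjusted p = 0.268), and Il15, a lymphocyte growth factor gene, at 0.23 ± 0.11 (adjusted p = 0.273). Among 7 tested prostaglandin genes the median was 0.00, with the synthase gene Ptges2 at 0.38 ± 0.15 (adjusted p = 0.212) and the prostacyclin receptor gene Ptgir at -0.23 ± 0.14 (adjusted p = 0.380).

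**Figure D4:**
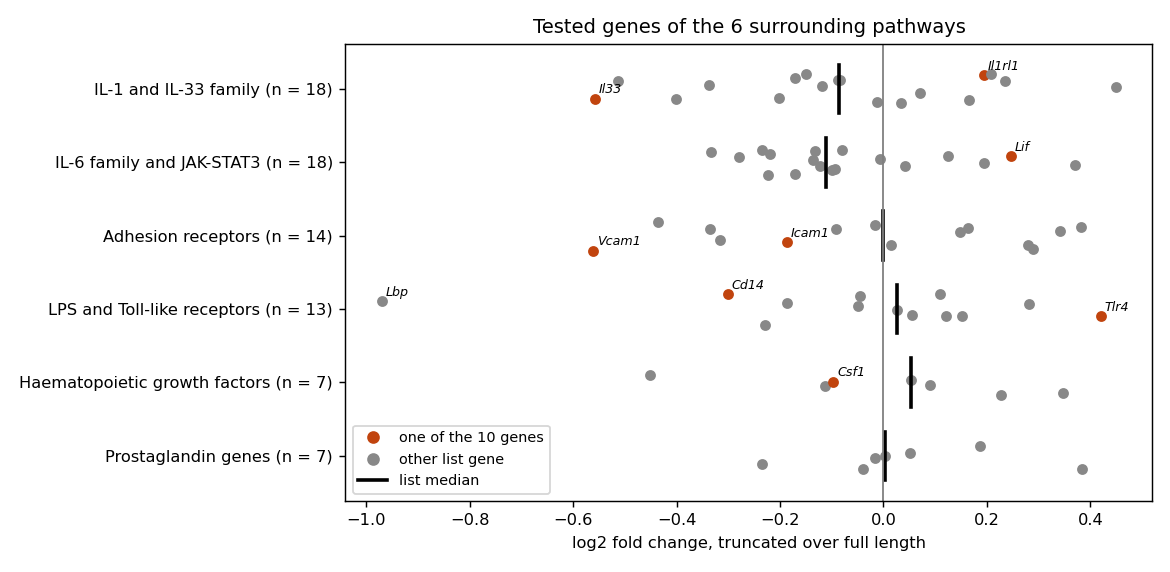
Log2 fold change, truncated over full length, of each tested gene in the 6 pathway lists, with members in orange, other genes in grey and black bars for list medians. Lbp lies farthest from 0, at -0.97, and no point passed at an adjusted p under 0.05.

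Markers of other cell types that express these genes were read beside them. Of 14 macrophage and myeloid markers, the probes for 10 were above background on no array, among them Adgre1, Lyz2, Fcgr1, Itgam and Tyrobp, and Cd68 alone was above background on all 6. Their summed background-corrected intensity ranged from 142 to 189 with the truncated form and from 139 to 175 with the full-length form. The part of such cells in the Cd14 values was not tested. Of 9 endothelial markers, Pecam1, Cdh5, Tie1 and Cldn5 were above background on no array, and Egfl7 and Esam on all 6. The summed intensity of the endothelial list ranged from 461 to 574 with the truncated form and from 608 to 680 with the full-length form, so it lay lower with the truncated form, as the Vcam1 mean did, and its part in the Vcam1 values was not tested. Among 3 tested endothelial markers none passed, with a median of -0.28. The summed fibroblast list moved the same way, from 22359 to 24736 with the truncated form and from 25991 to 30792 with the full-length form, and of its 8 tested genes 1 (Dcn) was lower at an adjusted p under 0.05, with a list median of -0.47. Its part in the values of Vcam1, Il33 and Cd14 was not tested. Of the mast cell markers, looked at because mast cells carry ST2, 7 were on the array and none was above background on all 6, and their summed intensity ranged from 79.4 to 91.6 with the truncated form and from 76.0 to 84.9 with the full-length form. Epithelial markers, which serve as a check for Il33, also had none of 7 above background on all 6 arrays, with sums from 89.3 to 103 for the truncated form and from 81.0 to 102 for the full-length form.

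The genes whose pattern over the 6 arrays was most like that of each bright member were found by Pearson's r of the normalized values. For Vcam1 these were Mxra8 (r = 0.993) and Hsd3b7 (r = 0.993), and for Il33 they were Ppl (r = 0.999) and Unc5c (r = 0.992). For Cd14 they were Tbx2 (r = 0.998) and Pex6 (r = 0.997), for Csf1 they were Tsr3 (r = 0.992) and Pigf (r = 0.983), and for Il1rl1 they were Camkk2 (r = 0.996) and Ddx20 (r = 0.994). These are the top values among 8989 other genes over 6 arrays that fall into 2 forms of 3, and they are given as a description with no test.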

How the data were processed

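Per the labels, biotin-labelled RNA of 6 samples was read on Illumina bead arrays with 1 colour. The deposited table lists 25697 probes, each with a signal intensity and a detection p-value on every array, and is headed non-normalized, per the file headers; GenomeStudio is named in the submitters' processing notes, without version. The deposited intensities had no background subtracted (lowest 103). A second deposited table of intensities, with near-identical distributions on all arrays, served only as an alternative.

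Background was corrected with limma 3.58.1 in R 4.3.3 (neqc, negative controls inferred from the detection p-values, offset 16), followed by quantile normalization and log2. Probes detected (p under 0.05) on 3 or more arrays were kept, and the brightest probe of each gene was used, which left 8990 genes. Probes were named by RefSeq accession (24202), symbol (536), synonym (297) or the symbol of the file (662). The forms were compared with lmFit and eBayes, truncated minus full length, with Benjamini-Hochberg adjustment over all genes; a second fit took every probe. The fit was also run on data simulated from its own variance model, which cannot test whether that model suits these arrays. Named genes are the 10 members, Nelfb, up to 3 further genes per list with the smallest p and the 2 most like genes per bright member. Il1rap, Ptgs1, Dcn, the other named cell type markers and the genes given as not above background were named after their values were seen. The members and lists were chosen with earlier results of these data known. Alternatives changed the background correction, offset, normalization, table, filter, probes per gene, variance model, weights, block and arrays used. Figures were drawn with matplotlib 3.10.9.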

Additional observations from a re-analysis of the deposited data

How the results depend on the processing

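The signs of Vcam1, Il33, Cd14, Csf1, Il1rl1, Lif and Tlr4 held in every alternative in which each was tested (17 to 19 of them). That of Icam1 held in 16 of 17. Alternatives of the filter, probes per gene, variance model and block left each tested member's log2 fold change unchanged, so they could not turn a sign. The number of members past the threshold, 0, did not hold. It was 3 with no background correction (Vcam1 -0.53, Il33 -0.43 and Cd14 -0.28) and 3 with the series matrix values (-0.53, -0.40 and -0.28). It was 2, Vcam1 and Il33, with normexp without controls (-0.55 and -0.49), with an offset of 50 (-0.55 and -0.51) and with a variance trend and robust eBayes (-0.56 and -0.56). It was 0 to 1 with single arrays left out, where Vcam1 ran from -0.75 to -0.41, Il33 from -0.72 to -0.39 and Icam1 from -0.300 to 0.0117 (without truncated replicate 1). The count over all genes, 144 of 8990, was 706 with no background correction and 630 with normexp without controls. It was 531 with an offset of 50, 731 with the series matrix values and 728 with the variance trend. Array weights gave 354, median scaling 81, and single arrays left out 0 to 275. Filters also changed the genes tested. The count was 250 of 7983 with detection on all 6 arrays and 243 of 8069 with detection p under 0.01. It was 33 of 17913 without a detection filter. It was 156 with cyclic loess and 135 with a gene's probes averaged. With the replicate number as a block it was 33, with 0 members. Same-numbered samples had an r of deviations from the group means of 0.03, -0.16 and -0.14. The other pairings ran from -0.04 to 0.18. Deviations from a mean of 3 arrays are tied to each other, so these values cannot exclude a shared batch. The numbers were not taken as pairs. In the fit of every probe the count of member probes, of 15, was 1 with no background correction and 2 with normexp without controls. It was 1 with the series matrix values. The share of all probes that passed was taken only in the main settings, so these counts have no share to be read against. With single arrays left out, log2 fold changes at background crossed 0 for Il6 (-0.11 to 0.19), the dim probes of Il1rl1 (-0.0119 to 0.297), Lif (-0.112 to 0.00791) and Tlr4 (-0.0580 to 0.110) and both Ptgs2 probes (-0.0574 to 0.0780 and -0.0404 to 0.00936, the second 0.0143 with median scaling). The log2 fold changes of the dim tested genes shrank in alternatives of the background correction, offset and table. These were no background correction, normexp without controls, an offset of 50 and the series matrix values. In that order Lif was 0.065, 0.111, 0.125 and 0.071, Tlr4 0.127, 0.204, 0.245 and 0.128, and Icam1 -0.051, -0.086, -0.098 and -0.056. Tlr4 was 0.278 with array weights. The cause of these shifts was not tested. Signal over background limits Il6, Ptgs2, Lif, Icam1 and Tlr4.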
